A study of Homo sapiens with 18 samples.

Results

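The 44 genes described here encode the proteins that duplicate DNA and the enzymes that supply its nucleotides, measured in the melanoma lines SKMEL5, WM2664 and A375, 3 human cell lines, after treatment with A-485. A-485 is an inhibitor of the acetyltransferases p300 and CBP, which acetylate histones and other proteins and serve as transcriptional coactivators. Each gene was read by the probe set that was brightest on average across the arrays. The 44 were listed by name, with earlier results of these data known. All 44 were found among the 19775 genes on the array, and all 44 lay above the filter that left 14042 genes for testing. Total RNA was hybridised to 18 1-colour Affymetrix arrays, 6 for each line. In each line, 2 arrays of cells given vehicle (DMSO) and 1 array of cells given A-485 were made after 6 h and again after 24 h. The labelled dose of A-485 was 3 mM, a unit that was not checked. The series describes 2 of the lines as sensitive and 1 as resistant without naming which in the sources used here, and nothing states that the arrays of a group are separate cultures. The p-values then reflect only how these arrays vary, which may be technical. The medium held serum, and no line carried an engineered change according to the labels. Levels are scaled intensities on a linear scale, and differences are A-485 minus DMSO on the log2 scale ± SE from limma, each from 1 A-485 array against 2 DMSO arrays. A gene was called when its Benjamini-Hochberg adjusted p over all 14042 genes was under 0.05. The A-485 arrays had no replicates, and the fit took their spread to equal that of the DMSO pairs.

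DNA replication starts at origins, where the origin recognition complex, CDC6 and CDT1 load the ring-shaped MCM helicase. In S phase, CDC45 and the GINS complex join MCM to make the active helicase, primase and the DNA polymerases copy the strands, and the sliding clamp PCNA, loaded by RFC, holds the polymerases on DNA. Ribonucleotide reductase, thymidylate synthase and related enzymes make the deoxynucleotides. Many of these genes are transcribed late in G1 and in S phase under E2F transcription factors, so that their RNA is higher in dividing cells. In bulk RNA, a smaller share of cells in these phases and less RNA per cell cannot be told apart.

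The members share promoter words that the choice of genes did not use. A window of 250 bases before to 50 after the RefSeq transcription start (GRCh38.p14) was given for 37 of the 44 genes. No window was used for MCM4, MCM5, GINS4, DSCC1, RPA2, RPA3 and RMI2. The E2F words TTTCCCGC, TTTGGCGC, TTTCGCGC and TTTGCCGC, searched on both strands and allowed to overlap, lay in 18 of the 37 windows (48.6%), against 4.44% of 15843 windows of all genes. The related word TTTGGCGG, added after the sequences had been read, lay in 7 (18.9%) against 0.871%. Either kind lay in 21 (56.8%) against 5.24%. The word CCAAT lay in 20 (54.1%) against 36.4%, CACGTG in 5 (13.5%) against 8.88%, GGGCGG in 25 (67.6%) against 58.5%, and TTTGAA in 1 (2.7%) against 12.1%, each on either strand. The 150 bases upstream of the start are shown for 6 genes on which the results turn, CDC6 of helicase loading and CDC45 of helicase activation, MCM6 of the helicase, RRM2 and TYMS of nucleotide supply and DTL of fork control. Capitals mark the E2F words, TTTGGCGG and CCAAT, the last written ATTGG where it is on the other strand. They are DTL at chr1:212035598-212035747 (+), MCM6 at chr2:135876444-135876593 (-), CDC6 at chr17:40287729-40287878 (+), CDC45 at chr22:19479770-19479919 (+), RRM2 at chr2:10122589-10122738 (+) and TYMS at chr18:657503-657652 (+), each printed 5′ to 3′ on the strand of its gene.
DTL: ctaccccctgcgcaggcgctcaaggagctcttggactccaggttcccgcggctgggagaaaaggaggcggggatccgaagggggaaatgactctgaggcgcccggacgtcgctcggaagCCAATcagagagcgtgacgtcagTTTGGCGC
MCM6: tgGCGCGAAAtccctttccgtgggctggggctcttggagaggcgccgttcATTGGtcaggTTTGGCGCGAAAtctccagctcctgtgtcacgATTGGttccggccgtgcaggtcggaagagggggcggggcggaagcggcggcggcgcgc
CDC6: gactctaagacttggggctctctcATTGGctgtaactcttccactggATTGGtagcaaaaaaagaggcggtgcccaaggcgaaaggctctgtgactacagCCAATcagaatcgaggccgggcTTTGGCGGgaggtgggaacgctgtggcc
CDC45: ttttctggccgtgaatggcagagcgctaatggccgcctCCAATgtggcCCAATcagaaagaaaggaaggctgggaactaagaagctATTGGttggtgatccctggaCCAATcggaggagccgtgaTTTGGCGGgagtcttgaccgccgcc
RRM2: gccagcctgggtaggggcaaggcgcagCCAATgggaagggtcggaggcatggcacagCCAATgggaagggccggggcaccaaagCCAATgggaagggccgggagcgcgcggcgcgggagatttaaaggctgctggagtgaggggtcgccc
TYMS: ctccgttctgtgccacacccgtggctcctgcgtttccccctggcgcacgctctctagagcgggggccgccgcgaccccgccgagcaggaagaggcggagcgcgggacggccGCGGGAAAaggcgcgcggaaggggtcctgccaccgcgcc
In these stretches, MCM6 held 3 E2F words, DTL and TYMS 1 each, CDC6 and CDC45 1 TTTGGCGG each, and RRM2 3 CCAAT words and no E2F word. At 24 h in SKMEL5, the median difference of the 18 members with an E2F word was -1.93 and that of the 19 others with a window -1.51. Medians with and without the word were -1.79 and -1.465 for CCAAT, -2.03 and -1.67 for CACGTG, and -3.29 and -1.61 for TTTGGCGG. They went the other way for GGGCGG (-1.74 and -1.96) and TTTGAA (-0.90 and -1.76). These gaps were not tested. The words share genes, the TTTGAA median is the value of 1 member, and the falls of some members with TTTGGCGG are lower bounds.

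The DMSO pairs correlated at 0.990 to 0.994 across genes. SKMEL5 and WM2664 expressed the melanocyte marker list strongly, with DMSO sums of 7 markers between 47111 and 48741 in SKMEL5 and between 32308 and 34746 in WM2664. A375 had sums of 1324 to 1943, with MITF at 407 to 468 and SOX10 at 722 to 913 on its 4 DMSO arrays. TYR, TYRP1 and MLANA were at the floor of 32 on 3 of these 4 arrays. A-485 arrays had lower sums, 37595 to 39870 in SKMEL5, 18285 to 21960 in WM2664 and 488 to 645 in A375. All 5 leukocyte markers were at the floor on every DMSO array of SKMEL5 and WM2664, and 3 of 5 in A375. The keratinocyte sums of DMSO and A-485 arrays overlapped in each line, and most of each DMSO sum came from KRT10, which rose by no more than 0.21. CDH1 was lower with A-485 in SKMEL5 (-1.07 at 6 h and -1.76 at 24 h), and KRT14 in A375 (-0.89 and -1.76). The sum of 6 fibroblast markers was lower on the A-485 arrays of SKMEL5 (4026 to 4285 against 4627 to 5379) and of A375 (634 to 1005 against 1626 to 2743) and higher in WM2664 (3093 to 5683 against 2932 to 3087), and its part in the results was not tested. Most of the DMSO sum came from 1 gene in each line, LUM in SKMEL5 (4154 to 4821), COL1A2 in WM2664 (2639 to 2898) and COL1A1 in A375 (1253 to 2308). 3 DMSO arrays carried traces of transcripts of another line. These were WM2664 6 h replicate 1 (a median of 1.6% of the SKMEL5 level), A375 6 h replicate 1 (0.472% of the SKMEL5 level) and WM2664 24 h replicate 2 (0.165% of the A375 level). Counts without them are given beside the results, but the share of all genes called in the same fit is not.

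After 24 h with A-485, the replication genes were far lower in SKMEL5 and moderately lower in WM2664, and none was called lower in A375. In SKMEL5, 43 of the 44 members fell and none rose, with a median of -1.76, where 35.4% of all genes were called, 20.2% higher and 15.2% lower. 36 members fell 2-fold or more (5.17% of all genes) and 18 fell 4-fold or more (1.13%). In WM2664, 26 members fell and 2 rose, with a median of -0.49, where 32.3% of all genes were called, 17.7% higher and 14.6% lower. There, 3 members fell 2-fold or more (4.56%). In A375, 8 members rose and none fell, with a median of 0.06, where the calls came to 17.5% of all genes (9.08% higher, 8.4% lower). The number of members called in A375 was thus near the share of all genes called. In that comparison 12 members had an unadjusted p under 0.05, as did 4078 of all 14042 genes tested. The SKMEL5 A-485 array lay below both DMSO arrays for 43 members (31% of all genes), the WM2664 array for 41 (31.5%) and the A375 array for 13 (29.9%). Above both DMSO arrays lay 0 members in SKMEL5 (41.2%), 2 in WM2664 (40.4%) and 25 in A375 (39.6%). The median of all genes tested was 0 in each of these comparisons.

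**Figure D1:**
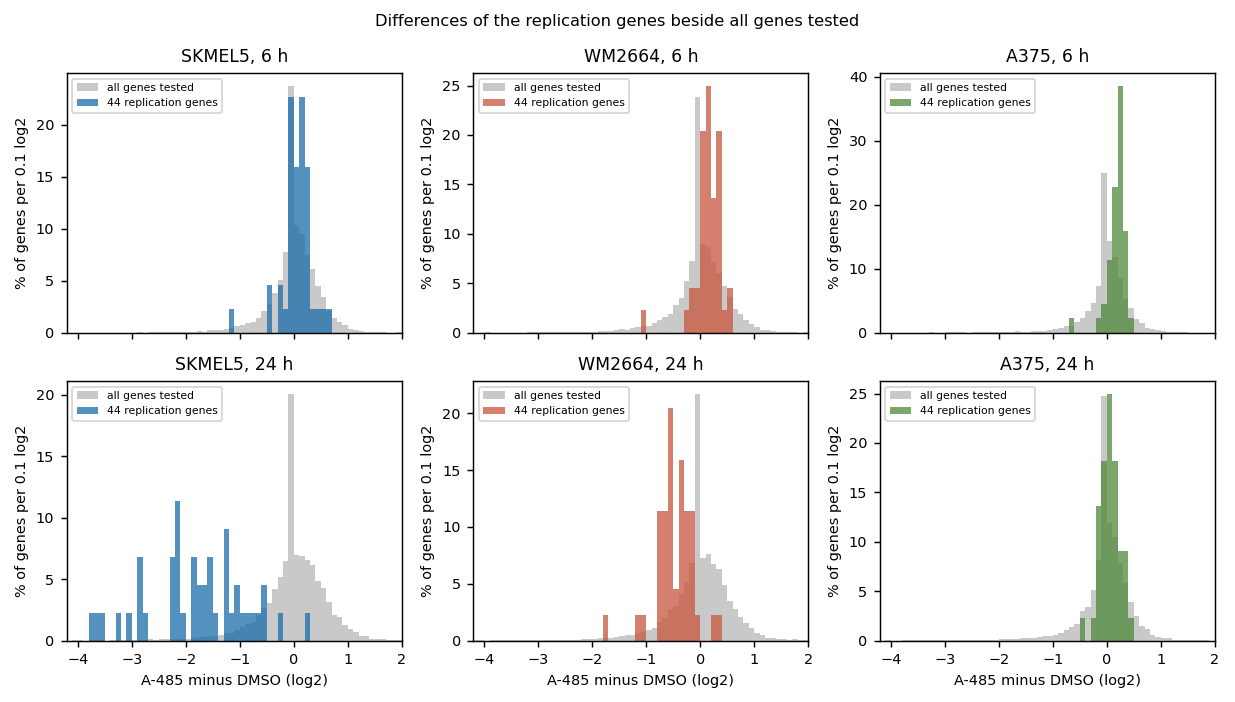
Histograms of A-485 minus DMSO (x axis, log2) for all 14042 genes tested (grey) and the 44 replication genes (colour), as the percentage of genes per 0.1 log2 (y axis), by line and time. At 24 h the replication genes lie around -1.76 in SKMEL5, -0.49 in WM2664 and 0.06 in A375, while at 6 h their medians are 0.07, 0.17 and 0.22.

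Without the 3 DMSO arrays with traces of another line, the members called at 24 h were 42 in SKMEL5, 20 in WM2664 and 2 in A375. Without scaling between arrays, 36 members were called lower in SKMEL5 but 1 in WM2664, where the members' median was then -0.18 while that of all genes of mean log2 of at least 8 was 0.35, and 42 of the 44 members lay below that median under either scaling. In A375, no member was called at 24 h without scaling, and 5 and 4 were called without DMSO 24 h replicate 1 and 2.

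After 6 h, most differences were small, with an upward median in each line, but RMI2 was at -1.18 in SKMEL5 and -1.04 in WM2664. In SKMEL5, 7 members rose and 3 fell (median 0.07), where 21.9% of all genes were called, 12.5% higher and 9.4% lower. In WM2664, 8 rose and 1 fell (median 0.17), where 25.7% were called, 14.9% higher and 10.8% lower. In A375, 11 rose and none fell (median 0.22), where 12.8% were called, 5.88% higher and 6.89% lower. The counts in SKMEL5 and WM2664 were near or under the share of all genes called. Genes of mean log2 of at least 8 had medians of 0.06, 0.08 and 0.05 in the same comparisons. The A-485 array lay above both DMSO arrays for 24 members in SKMEL5 (41.3% of all genes), 37 in WM2664 (41.7%) and 40 in A375 (41.7%), and below both for 11 (29.3%), 6 (29.1%) and 3 (26.7%). The split of calls moved with the scaling. With arrays scaled to a common 75th percentile, 3 members were higher and 3 lower in SKMEL5, 2 higher and 2 lower in WM2664, and 4 higher and none lower in A375. Of all 14042 genes tested, 3442 had an unadjusted p under 0.05 in A375 at 6 h. In A375, 20 members had an unadjusted p under 0.05 at 6 h, 6 members were called without DMSO 6 h replicate 1, 2 without replicate 2, and 2 without the 3 arrays that carried traces of another line.

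**Figure D2:**
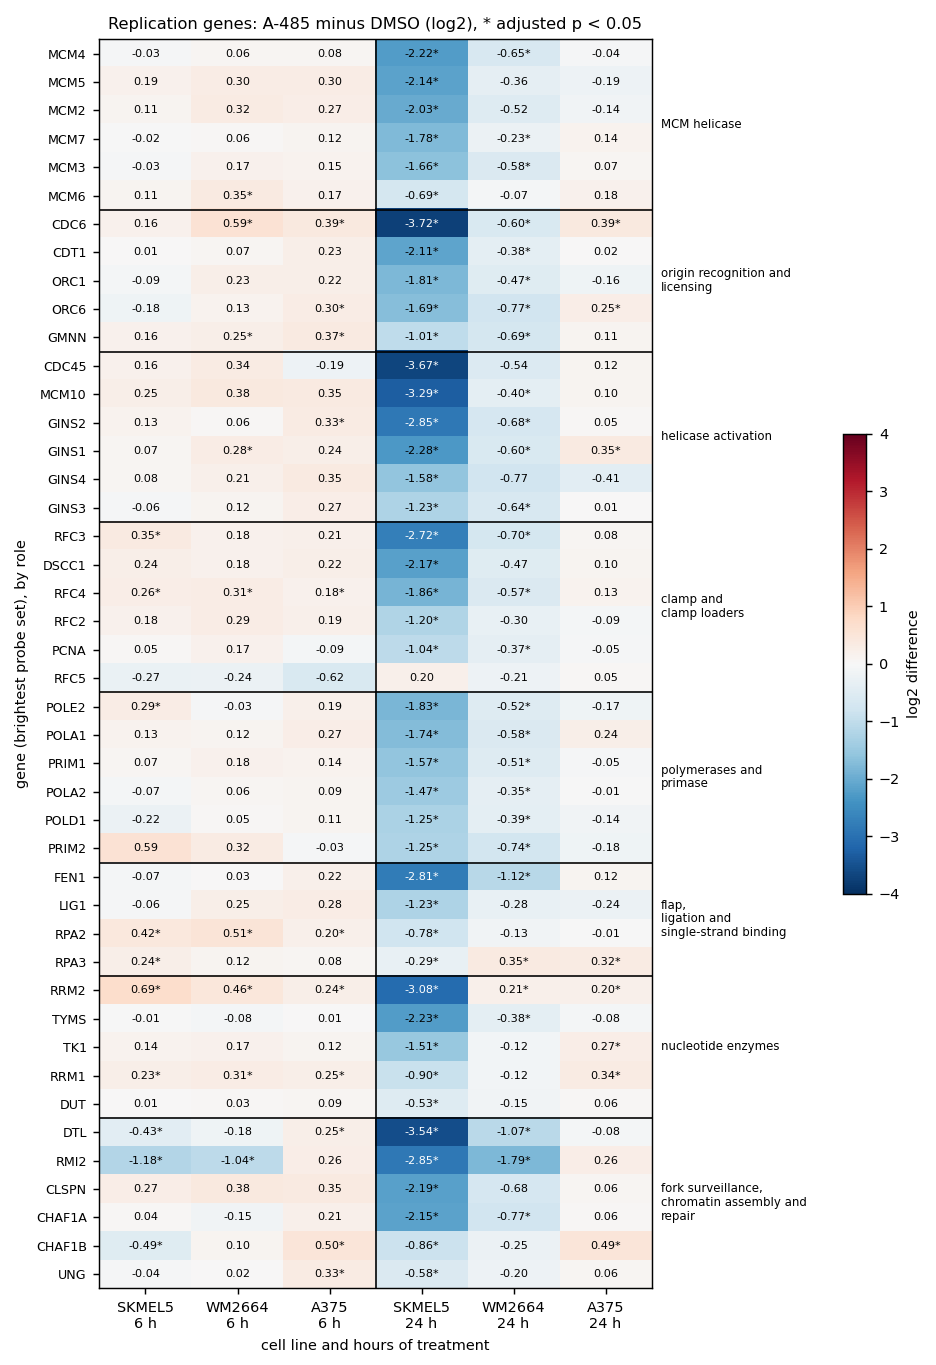
A-485 minus DMSO (log2, colour scale) for each of the 44 genes (rows, grouped by role) in each line and time (columns), with an asterisk for an adjusted p under 0.05. The SKMEL5 24 h column is blue in 43 rows, with CDC6 at -3.72, and the A375 columns stay between -0.62 and 0.5.

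Averaged over the 3 lines, 18 members rose and 2 fell at 6 h (median 0.15), where 37.2% of all genes were called, 22% higher and 15.2% lower. At 24 h, 1 rose and 42 fell (median -0.75), where 46.6% were called, 26% higher and 20.5% lower. At 6 h the counts were 9 higher and 5 lower with 75th percentile scaling, 15 higher and none lower without scaling, and 13 called without the WM2664 A-485 6 h array. The 24 h mean rested largely on SKMEL5, since 19 members were called without its A-485 24 h array. With the spread between lines in the error, by an additive fit of line and treatment, no member was called at 24 h and 13 were called at 6 h.

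The 6 MCM2 to MCM7 genes encode the helicase that is loaded at origins and unwinds DNA ahead of the fork. In SKMEL5 at 24 h, all 6 fell, with a median of -1.90 and a range of -2.22 (MCM4) to -0.69 (MCM6). In WM2664, MCM3, MCM4 and MCM7 fell, the median was -0.44, and MCM6 was nearly level at -0.07 ± 0.06 (adjusted p = 0.462). In A375, none was called and the median was 0.01. MCM4 read 1379 and 1375 on the SKMEL5 DMSO arrays and 295 on the A-485 array, a difference of -2.22 ± 0.05 (adjusted p = 3.5e-07). In WM2664, MCM4 read 1680 and 1678 with DMSO and 1070 with A-485 (-0.65 ± 0.05, adjusted p = 0.000142), and in A375 2673 and 2734 with DMSO and 2631 with A-485 (-0.04 ± 0.05, adjusted p = 0.79). The A-485 level lay under both DMSO levels in each line, and the gap in A375 was no larger than the spread between arrays. MCM6 fell least of the 6, from 2023 and 1877 to 1204 in SKMEL5. At 6 h, MCM6 was the one MCM gene called, in WM2664 (2686 and 2580 with DMSO, 3366 with A-485; 0.35 ± 0.06, adjusted p = 0.00423). MCM5 rose at 6 h in the mean of the 3 lines, by 0.26, but its second probe set, used when sets with a cross-hybridising suffix were left out, gave -0.064 there, so that the direction at 6 h depends on the probe set. At 24 h in SKMEL5, MCM5 read 716 and 603 with DMSO and 149 with A-485.

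ORC1, ORC6, CDC6, CDT1 and GMNN act at origin licensing, with ORC1 and ORC6 in the origin recognition complex, CDC6 and CDT1 as MCM loaders and geminin (GMNN) as the inhibitor of CDT1. All 5 fell at 24 h in SKMEL5 (median -1.81) and all 5 fell in WM2664 (median -0.60). In A375, CDC6 and ORC6 rose and the other three were not called. CDC6 fell in SKMEL5 from 431 and 433 to 32.8, which is close to the floor of 32, so that its difference of -3.72 ± 0.09 (adjusted p = 2.83e-07) is not exact and cannot be ranked against genes at the floor. In WM2664, CDC6 read 504 and 523 with DMSO and 339 with A-485 at 24 h (-0.60 ± 0.09, adjusted p = 0.00162). In A375, CDC6 read 904 and 854 with DMSO and 1155 with A-485 (0.39 ± 0.09, adjusted p = 0.019). CDC6 therefore fell in both other lines and rose in A375. At 6 h it was higher in all 3 lines, 774 against 739 and 649 in SKMEL5, 959 against 652 and 624 in WM2664 and 1404 against 1105 and 1031 in A375, and the rise was called in WM2664 and A375. ORC1 and CDT1 were at the floor on the SKMEL5 A-485 24 h array, which makes their falls of 1.81 and 2.11 lower bounds. The second, dimmer probe set of CDT1 gave -0.88 in SKMEL5, -1.05 in WM2664 and -0.45 in A375 at 24 h. The brightest set gave -2.11, -0.38 and 0.02, so the order of the lines for CDT1 depends on the probe set. Geminin, the inhibitor, fell in the same lines as CDT1, by 1.01 in SKMEL5 and by 0.69 in WM2664, and had risen in WM2664 (0.25 ± 0.06) and A375 (0.37 ± 0.06) at 6 h.

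CDC45, MCM10 and the 4 GINS genes convert the loaded MCM ring into the active helicase. All 6 fell in SKMEL5 at 24 h, with a median of -2.56. In WM2664, 4 fell (median -0.62), and in A375 GINS1 rose and no gene fell (median 0.07). CDC45 read 481 and 344 on the SKMEL5 DMSO arrays and was at the floor of 32 on the A-485 array, a difference of -3.67 or lower (adjusted p = 1.56e-05). In WM2664, CDC45 read 634 and 534 with DMSO and 399 with A-485 (-0.54 ± 0.21, adjusted p = 0.086), and in A375 478 and 553 with DMSO and 557 with A-485 (0.12 ± 0.21). The WM2664 level was below both DMSO levels but was not called. MCM10 read 344 and 286 with DMSO and 32, the floor, with A-485 in SKMEL5, 277 and 266 against 206 in WM2664, and 767 and 803 against 840 in A375. It differed by -3.29 or lower in SKMEL5 and fell by 0.40 in WM2664. GINS1 to GINS4 fell by 2.28, 2.85, 1.23 and 1.58 in SKMEL5, with GINS2 and GINS4 ending within 2-fold of the floor.

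PCNA is the sliding clamp, RFC2 to RFC5 are subunits of its loader, and DSCC1 belongs to the alternative loader that acts in sister chromatid cohesion. 5 of the 6 fell in SKMEL5 at 24 h (median -1.53), 3 fell in WM2664 (median -0.42) and none was called in A375 (median 0.07). RFC3 read 1013 and 1222 with DMSO and 169 with A-485 in SKMEL5 (-2.72 ± 0.10, adjusted p = 1.54e-06), 1303 and 1275 against 793 in WM2664 (-0.70 ± 0.10, adjusted p = 0.00132), and 1264 and 1268 against 1341 in A375 (0.08 ± 0.10). RFC4 was higher at 6 h in each line, by 0.26 in SKMEL5, 0.31 in WM2664 and 0.18 in A375, all called, and fell at 24 h from 1276 and 1327 to 359 in SKMEL5. PCNA, with intensities of 3778 and 4110, fell to 1913 in SKMEL5. RFC5 was the 1 member not called in SKMEL5 at 24 h, reading 1417 and 991 with DMSO and 1364 with A-485 (0.20 ± 0.23). Its brightest probe set stood against its other probe sets, which gave -1.5 and -2.20 in SKMEL5, -0.61 and -0.53 in WM2664 and 0.12 and -0.01 in A375. Read by the second brightest set, a choice made after these values were seen, RFC5 fell in SKMEL5 and WM2664, and all 44 members were then called lower in SKMEL5.

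The polymerase group holds POLA1, POLA2, PRIM1 and PRIM2 of the polymerase alpha and primase complex, which starts each strand, and POLD1 and POLE2 of polymerases delta and epsilon, which extend it. All 6 fell in SKMEL5, within the narrow range of -1.83 (POLE2) to -1.25 (PRIM2), and all 6 fell in WM2664, between -0.74 (PRIM2) and -0.35 (POLA2). None was called in A375, where 5 of the 6 differences were below 0 (median -0.09). POLE2 read 341 and 342 with DMSO and 95.8 with A-485 in SKMEL5, 516 and 550 against 373 in WM2664, and 617 and 646 against 562 in A375. The A375 difference of -0.17 ± 0.06 was not called (adjusted p = 0.0824). POLA1 read 407 and 399 against 121 in SKMEL5, 257 and 231 against 163 in WM2664, and 466 and 495 against 567 in A375, where the A-485 level was above both DMSO levels (0.24 ± 0.10, adjusted p = 0.155). At 6 h, POLE2 was the only gene of the group called in any line, with SKMEL5 higher (0.29 ± 0.06, adjusted p = 0.00911).

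FEN1 removes the flaps of Okazaki fragments, LIG1 seals them, and RPA2 and RPA3 are subunits of the single-strand binding protein RPA. FEN1 had the largest fall of this group in SKMEL5, from 1840 and 1732 to 255 (-2.81 ± 0.06, adjusted p = 2.83e-07). It also had the largest in WM2664, from 1677 and 1827 to 808 (-1.12 ± 0.06, adjusted p = 2.39e-05). In A375, FEN1 read 3035 and 3031 with DMSO and 3305 with A-485 (0.12 ± 0.06, adjusted p = 0.267). RPA2 rose at 6 h in every line, from 1324 and 1375 to 1803 in SKMEL5 (0.42 ± 0.05), from 943 and 903 to 1313 in WM2664 (0.51 ± 0.05) and from 1841 and 1833 to 2109 in A375 (0.20 ± 0.05). At 24 h, RPA2 fell from 1176 and 1178 to 684 in SKMEL5 and was not called in WM2664 (887 and 886 against 812) or A375 (1635 and 1718 against 1660). RPA3 went the other way from the list. It read 2169 and 2127 with DMSO and 2743 with A-485 at 24 h in WM2664 (0.35 ± 0.05, adjusted p = 0.0018). In A375, RPA3 read 2495 and 2599 against 3177 (0.32 ± 0.05, adjusted p = 0.00557). In SKMEL5 it fell the least of the called members, from 2431 and 2518 to 2030 (-0.29 ± 0.05, adjusted p = 0.00436), and it was the 1 member that rose in the mean of the 3 lines.

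The nucleotide enzymes are RRM1 and RRM2, the large and small subunits of ribonucleotide reductase, thymidylate synthase (TYMS), thymidine kinase (TK1) and the dUTPase DUT. All 5 fell in SKMEL5 at 24 h (median -1.51), while in WM2664 TYMS fell and RRM2 rose (median -0.12), and in A375 RRM1, RRM2 and TK1 rose (median 0.20). RRM2 went in opposite directions in SKMEL5 and WM2664 at 24 h. At 6 h, RRM2 rose from 4025 and 4040 to 6513 in SKMEL5 (0.69 ± 0.05, adjusted p = 0.0002), from 4062 and 4114 to 5611 in WM2664 (0.46 ± 0.05, adjusted p = 0.000885), and from 6350 and 6166 to 7392 in A375 (0.24 ± 0.05, adjusted p = 0.0283). At 24 h, it fell from 2973 and 2790 to 341 in SKMEL5 (-3.08 ± 0.05, adjusted p = 1.24e-07) but stayed above both DMSO arrays in WM2664, 4371 against 3708 and 3847 (0.21 ± 0.05, adjusted p = 0.0219), and in A375, 6568 against 5632 and 5840 (0.20 ± 0.05, adjusted p = 0.0479). In SKMEL5, RRM2 thus held the highest difference of the 44 genes at 6 h and fell by 3.08 at 24 h. Its partner RRM1 moved less, with a fall from 2440 and 2347 to 1282 in SKMEL5. TYMS read 3946 and 3967 with DMSO and 842 with A-485 in SKMEL5 (-2.23 ± 0.04, adjusted p = 1.6e-07), 6660 and 6839 against 5191 in WM2664 (-0.38 ± 0.04, adjusted p = 0.00061), and 5254 and 5254 against 4973 in A375 (-0.08 ± 0.04, adjusted p = 0.304). At 6 h, TYMS differed by no more than 0.08 in any line. DUT, with the smallest fall of the group, went from 2820 and 2836 to 1964 in SKMEL5.

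**Figure D3:**
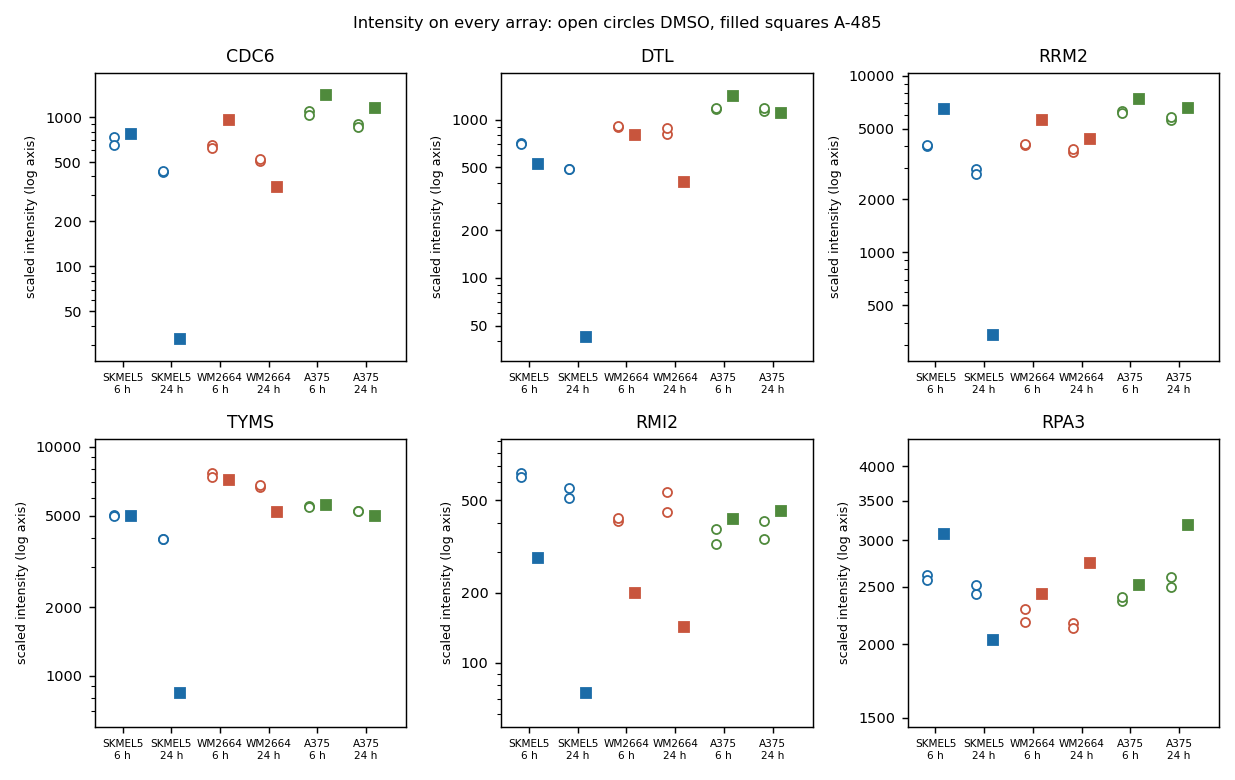
Scaled intensity (y axis, log scale) of 6 genes on every array, with DMSO as open circles and A-485 as filled squares, by line and time on the x axis. In SKMEL5 at 24 h the A-485 array lies far below the DMSO pair for CDC6 (32.8), DTL (42.0), RRM2 (341), TYMS (842) and RMI2 (74.5), and for RPA3 the A-485 array lies above the pair in WM2664 and A375.

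CLSPN (claspin) relays checkpoint signals at the fork, DTL is the adaptor by which a ubiquitin ligase destroys CDT1 on PCNA, CHAF1A and CHAF1B are subunits of the CAF-1 histone chaperone, UNG removes uracil from DNA, and RMI2 belongs to the BLM helicase complex. All 6 fell in SKMEL5 at 24 h (median -2.17), DTL, CHAF1A and RMI2 fell in WM2664 (median -0.73), and CHAF1B rose in A375 (median 0.06). DTL read 489 and 488 with DMSO and 42.0 with A-485 in SKMEL5 (-3.54 ± 0.06, adjusted p = 8.37e-08), within 2-fold of the floor. In WM2664, DTL read 813 and 882 with DMSO and 403 with A-485 (-1.07 ± 0.06, adjusted p = 1.67e-05), and in A375 1141 and 1195 against 1106 (-0.08 ± 0.06, adjusted p = 0.462). In SKMEL5, RMI2, DTL and CHAF1B had already fallen at 6 h, when 28 of the 44 differences were above 0. RMI2 fell at 6 h from 654 and 630 to 283 in SKMEL5 (-1.18 ± 0.15, adjusted p = 0.0019) and from 406 and 422 to 201 in WM2664 (-1.04 ± 0.15, adjusted p = 0.00239), and read 323 and 376 against 416 in A375 (0.26 ± 0.15, adjusted p = 0.391). By 24 h, it had fallen from 565 and 514 to 74.5 in SKMEL5 (-2.85 ± 0.15) and from 541 and 446 to 142 in WM2664 (-1.79 ± 0.15, adjusted p = 0.000157), the largest fall of the 44 genes in WM2664, while A375 read 341 and 409 against 449. DTL fell at 6 h from 710 and 707 to 524 in SKMEL5 (-0.43 ± 0.06) and rose from 1180 and 1196 to 1408 in A375 (0.25 ± 0.06). CHAF1B rose most in A375, from 192 and 176 to 260 at 6 h (0.496 ± 0.10, adjusted p = 0.0161) and from 184 and 167 to 246 at 24 h (0.49 ± 0.10, adjusted p = 0.0134). In SKMEL5, CHAF1B fell at both times, to 239 from 345 and 325 at 6 h and to 154 from 293 and 267 at 24 h. CLSPN reached the floor in SKMEL5 at 24 h, a fall of at least 2.19.

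The response of each line to A-485 changed between the times to different degrees. In SKMEL5, the response was lower at 24 h than at 6 h for 42 members and higher for none (13.8% of all genes called, 7.24% lower), with a median change of -1.74. In WM2664, it was lower for 21 (11.3% called, 6.36% lower), with a median change of -0.68. In A375, limma called no member (3.82%), with a median change of -0.12. There, 7 members had an unadjusted p under 0.05, as did 2289 of all 14042 genes. For the mean of the 3 lines, the change was called lower for 41 members (20.6% called, 11% lower), with -1.69 for CDC6, -1.53 for MCM10 and -1.47 for CDC45, the last 2 with a SKMEL5 array at the floor. Without the SKMEL5 A-485 24 h array the count was 23, and without scaling 26.

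The lines differed from each other at 24 h. The response of A375 was higher than the mean of SKMEL5 and WM2664 for 40 members and lower for none (24.1% of all genes called, 12.2% higher), with a median difference of 1.11. RMI2 differed by 2.59 ± 0.19, CDC6 by 2.55 ± 0.10 and DTL by 2.23 ± 0.07, the last 2 not exact because SKMEL5 ended near the floor. GINS4, LIG1, PRIM2 and RFC5 were not called. Without the SKMEL5 A-485 24 h array 22 members were called, without scaling 14, and with intensities as deposited and a floor of 1, 7. The response of SKMEL5 was lower than that of WM2664 for 40 members (15% called, 7.29% lower), with a median difference of -1.22. Among them were RRM2 (-3.29 ± 0.08), CDC45 (-3.13 or lower, its SKMEL5 A-485 array being at the floor) and CDC6 (-3.12 ± 0.12, not exact this near the floor). Without scaling, 19 members were called in this comparison, and 30 without the 3 arrays with traces of another line.

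At 6 h, the lines differed little. The A375 response was higher than the mean of the others for 4 members, RMI2 (1.37), CHAF1B (0.69), DTL (0.55) and ORC6 (0.32), and lower for RRM2 (-0.33) and RPA2 (-0.26), where 11.8% of all genes were called. Without the SKMEL5 A-485 6 h array 3 members were called, and without scaling none. Between SKMEL5 and WM2664, limma called no member at 6 h (5.46% of all genes). An unadjusted p under 0.05 was found for 7 members and for 2419 of all 14042 genes. With a floor of 64, 3 members were called, and 3 with the mean of all probe sets of a gene.

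**Figure D4:**
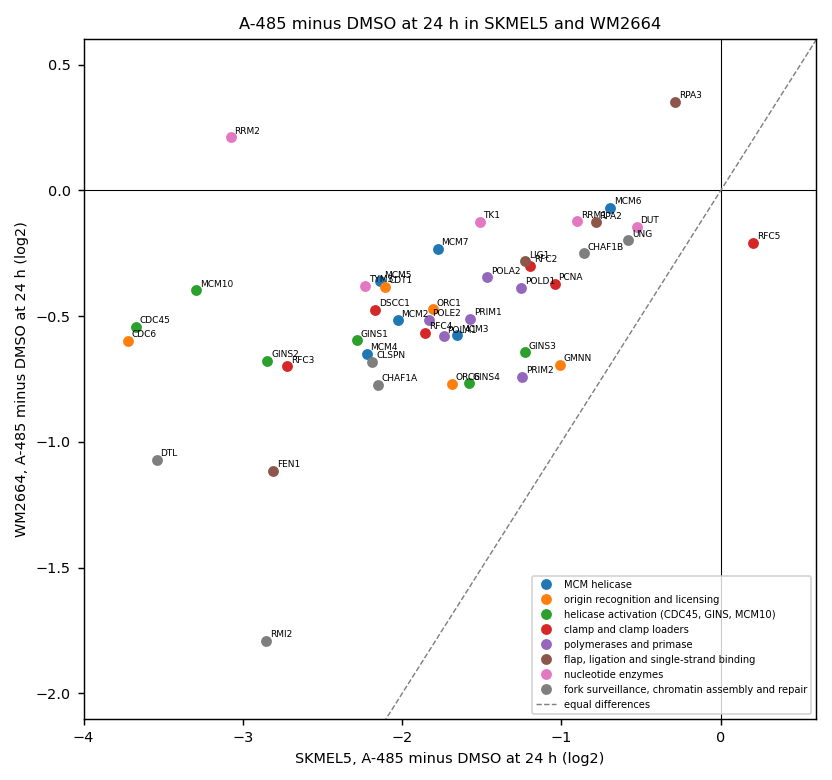
A-485 minus DMSO at 24 h in SKMEL5 (x axis) against WM2664 (y axis), log2, each point 1 of the 44 genes coloured by role, with a dashed line of equal differences. Of the 44 points, 43 lie left of the line, and RRM2 and RPA3 are the 2 above 0 on the WM2664 axis.

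The members also varied among themselves within a line. Across the 44 genes, which share their arrays and are not independent, the 24 h differences of SKMEL5 and WM2664 had a Pearson r of 0.499 and a Spearman rho of 0.55, against a Pearson r of 0.57 over all genes tested. SKMEL5 was lower than WM2664 for 43 of the 44. The 24 h differences of A375 had an r of -0.07 with those of SKMEL5 (0.21 over all genes) and of 0.11 with those of WM2664 (0.28). At 6 h, SKMEL5 and WM2664 had an r of 0.80 and a rho of 0.65 (r of 0.62 over all genes), with RMI2, at -1.18 and -1.04, far below the other members in both.

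Levels also changed over time with vehicle alone. In DMSO, levels at 24 h were lower than at 6 h for 27 members and higher for MCM2 alone in the mean of the 3 lines (median -0.22; 14.2% of all genes called, 7.2% lower). By line, 29 members were lower in SKMEL5 (median -0.40; 8.5% of all genes called, 4.17% lower), 2 in WM2664 (median -0.15; 2.11% and 0.99%) and 1, ORC6, in A375 (median -0.07; 2.74% and 1.26%). Without scaling no member was called in the mean of the 3 lines, and 14 without the 3 arrays with traces of another line. The DMSO difference in SKMEL5 was -0.80 ± 0.06 for GINS1, from 1256 and 1187 at 6 h to 711 and 686 at 24 h. The lowest difference of a member there was -0.95. Set against DMSO at 6 h in place of DMSO at 24 h, the SKMEL5 A-485 24 h array was lower for 43 members (39.1% of all genes called, 16.4% lower) with a median of -2.12, the WM2664 array lower for 35 and higher for 1 (34%) with a median of -0.67, and the A375 array higher for 4 and lower for none (20.4% called, 11.1% higher) with a median of -0.02. In A375, 15 members had an unadjusted p under 0.05 in that comparison, as did 4510 of all 14042 genes.

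**Figure D5:**
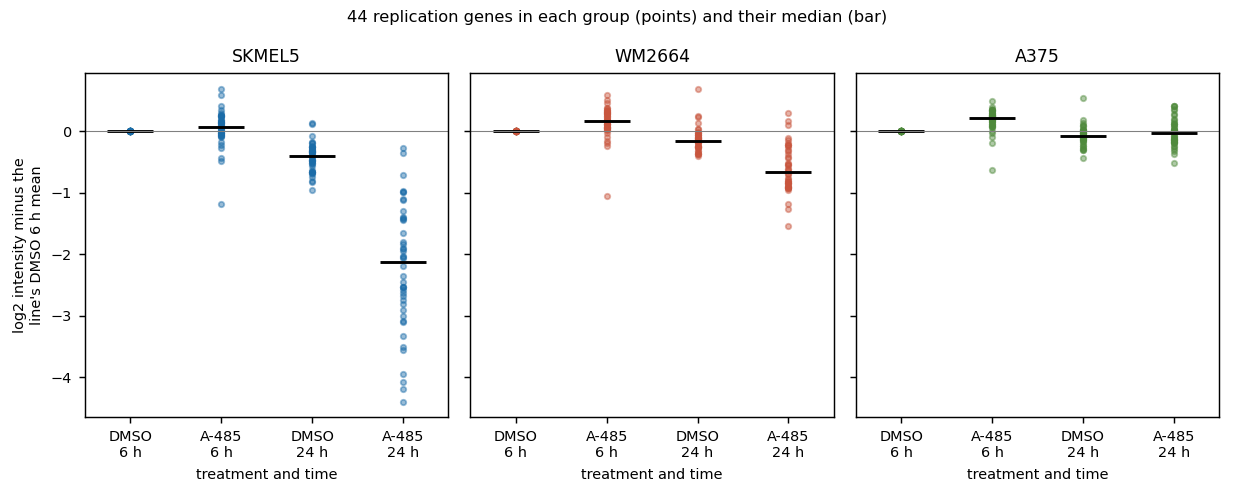
Log2 intensity of each of the 44 genes (points) in each group, as the difference from the DMSO 6 h mean of the same line (y axis), with the median as a bar, by treatment and time (x axis). The medians are -0.40 (DMSO) and -2.12 (A-485) at 24 h in SKMEL5, -0.15 and -0.67 in WM2664, and -0.07 and -0.02 in A375.

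A375 also started from higher levels. At 6 h in DMSO, 26 members were lower and 6 higher in SKMEL5 than in A375 (59.7% of all genes called, 32% lower), with a median difference of -0.32, and 26 were lower and 5 higher in WM2664 than in A375 (60.1% called, 32.9% lower), with a median of -0.34. The largest gap was that of MCM2, at 188 and 214 in SKMEL5 and 191 and 213 in WM2664 against 1139 and 1206 in A375, log2 differences of -2.55 and -2.54. SKMEL5 and WM2664 differed less from each other, with 14 members higher and 8 lower in SKMEL5 (52% called) and a median of 0.00.

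Other probe sets of the same genes were read separately. Of 25 other bright probe sets (mean log2 of at least 6) of 19 member genes, all 25 were below 0 in SKMEL5 at 24 h, between -3.37 and -0.71, 24 in WM2664 and 9 in A375. At 6 h, 9 of the 25 were below 0 in SKMEL5, 7 in WM2664 and 1 in A375. The sign matched that of the brightest set at 6 h for 14, 18 and 22 of the 25, in the same order of lines.

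Further genes of the same processes are given here, from lists of known members that were chosen with earlier results of these data known. They therefore do not stand as independent of these data. The shares of all genes called at 24 h were 20.2% higher and 15.2% lower in SKMEL5, 17.7% and 14.6% in WM2664, and 9.08% and 8.4% in A375. Of 38 other replication factors, 25 fell and 4 rose in SKMEL5 at 24 h, 11 fell and 4 rose in WM2664, and 3 fell and 4 rose in A375, which is near the share of all genes. The 4 that rose in SKMEL5 and in WM2664 are under it. UHRF1, which couples replication to DNA methylation, fell most in the mean of the 3 lines (-1.24 ± 0.05, adjusted p = 2.67e-06), with -2.98 in SKMEL5, followed by the histone chaperone ASF1B (-0.78 ± 0.12) and CHTF18 of the cohesion clamp loader (-0.75 ± 0.14). MCM9 (0.64 ± 0.08), ORC2 (0.43 ± 0.11) and ORC4 (0.33 ± 0.05) rose in that mean, and MCM9 and ORC4 had risen at 6 h (0.73 ± 0.08 and 0.52 ± 0.05), with DNA2 (0.60 ± 0.11), while the histone chaperone ASF1A fell (-0.42 ± 0.06). Subunits of the origin recognition complex thus moved in both directions, with ORC1 and ORC6 lower and ORC2 and ORC4 higher in that mean.

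Of 29 tested genes of nucleotide synthesis outside the 44, 18 fell and 3 rose in SKMEL5 at 24 h, 13 fell and 3 rose in WM2664, and 1 rose in A375. The counts that rose are under the shares of all genes in each line. The folate enzyme MTHFD2 fell most in the mean of the 3 lines (-0.86 ± 0.06, adjusted p = 2.59e-05), with -1.59 in SKMEL5 and -1.03 in WM2664, after a rise at 6 h (0.33 ± 0.06). The pyrimidine enzymes DHODH (-0.65 ± 0.09) and CTPS1 (-0.61 ± 0.03) fell as well. DCTD (0.27 ± 0.04) and RRM2B, an alternative small subunit of ribonucleotide reductase (0.28 ± 0.10), rose in the mean at 24 h. The dNTP hydrolase SAMHD1 rose in the mean (0.27 ± 0.09 at 24 h, 0.40 ± 0.09 at 6 h), which WM2664 carried with 0.79 and 1.05, while SKMEL5 had -0.19 and -0.06 and A375 had 0.22 and 0.20, none of them called. At 6 h, DCK (0.37 ± 0.10) rose, and GART, PFAS and IMPDH1 of purine synthesis fell by 0.26, 0.23 and 0.21.

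Of 31 tested genes of E2F and G1/S control, 17 fell and 5 rose in SKMEL5 at 24 h, 9 fell and 4 rose in WM2664, and 1 fell and 5 rose in A375. The counts that rose in SKMEL5 and WM2664 are under the shares of all genes. CDKN1A, which encodes the CDK inhibitor p21, had values of 1.39 in SKMEL5, 1.53 in WM2664 and -0.12 in A375 at 24 h, and of 1.30, 1.5 and -0.26 at 6 h. CDK2 read -1.85, -1.37 and -0.11 at 24 h, E2F7 -2.16, -1.39 and 0.16, and cyclin A2 (CCNA2) -2.69, -0.73 and 0.07, in the same order of lines. TFDP2 and RB1 had values above 0 in every line at 24 h and rose in the mean (0.77 ± 0.04 and 0.42 ± 0.05). CDK6 and cyclin D1 (CCND1) fell at 6 h in the mean (-1.07 ± 0.07 and -1.01 ± 0.07) with every line below 0, A375 at -0.94 and -1.29, and cyclin E2 (CCNE2) rose (0.73 ± 0.06). Of 22 genes of mitosis, 20 fell in SKMEL5 at 24 h (median -1.77) and 19 in WM2664 (median -0.56), none rose in either, and 2 fell and 2 rose in A375 (median 0.09). AURKB, CENPA and CDK1 led, at -4.02, -3.06 and -3.34 in SKMEL5, -1.36, -0.89 and -0.58 in WM2664, and -0.43, 0.05 and 0.27 in A375. At 6 h, 9 mitosis genes rose in SKMEL5 (12.5% of all genes tested rose) and 7 in WM2664 (14.9% of all genes). In the mean of the 3 lines at 6 h, CENPE (0.77 ± 0.19), CDC25C (0.56 ± 0.11) and TTK (0.49 ± 0.07) rose. The replication and mitosis lists had like medians in each line at 24 h, -1.76 and -1.77 in SKMEL5 and -0.49 and -0.56 in WM2664.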

How the data were processed

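Deposited values are linear intensities, 1 for each probe set on each array, per the file headers. How the authors corrected background or scaled these intensities is not given in the sources used here. Total RNA was labelled as biotinylated cRNA, per the labels' protocols. Array medians and 75th percentiles of the deposited values differed and 19.3% or more of each array's values were below 0. Intensities were therefore quantile normalized on the linear scale, set to a floor of 32 and taken as log2. Of 54613 probe sets, 41091 had 1 gene symbol, 1801 several and 11721 none listed, and symbols were updated by Entrez identifier (41037). Genes with a mean log2 at or below 5.01, the 40th percentile of probe set means, were dropped, which left 14042 of 19775. A model of 12 group means was fitted to the 18 arrays with limma 3.58.1 in R 4.3.3 (6 residual and 1.26 prior degrees of freedom), with 14 comparisons and 15 added later (each line over time and DMSO levels between lines). It was run on simulated data in which the A-485 arrays varied like the DMSO pairs. That run could not test whether the real A-485 arrays do so. The small number of arrays limits the precision.

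The members and lists were chosen with earlier results of these data known. Values per array are given, by rule, for the called member with the largest difference of each role at each time in the mean of 3 lines, the largest differences in each line and between lines and times, and members called against the list's direction. Of other lists, up to 3 called genes per direction and time in the mean of the lines are named. Other genes named were chosen after their values were seen. Alternatives changed the scaling, floor, filter, probe set, model, replicate block and arrays left out. Member counts under them are given without the share of all genes called in the same run. They therefore cannot tell a loss of calls in the members from a loss across all genes. Sequences are from RefSeq.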

Additional observations from a re-analysis of the deposited data

Results flagged for a closer look

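The effects of A-485 that differed between times or lines by a test of the difference itself are collected here. Between 24 h and 6 h, the mean response of the 3 lines differed for 41 members, where 20.6% of all genes were called, with -1.69 for CDC6, -1.53 for MCM10 and -1.47 for CDC45. At 24 h, the response of A375 differed from the mean of SKMEL5 and WM2664 for 40 members (24.1% of all genes), with 2.59 for RMI2, 2.55 for CDC6 and 2.23 for DTL. The response of SKMEL5 differed from that of WM2664 for 40 members (15% of all genes), with -3.29 for RRM2, -3.13 for CDC45 and -3.12 for CDC6. SKMEL5 with A-485 at 24 h was at the floor for CDC45 and MCM10 and near it for CDC6 and DTL, so these values are bounds or not exact and have no order. At 6 h, A375 differed from the others for 6 members, a share near the 11.8% of all genes called, with 1.37 for RMI2, 0.69 for CHAF1B, 0.55 for DTL, -0.33 for RRM2 and -0.26 for RPA2 among them. All these are log2 differences from limma, and each A-485 group is 1 array.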

How the results depend on the processing

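In SKMEL5 at 24 h, 31 to 44 members were called under every alternative run, all lower, and 43 each time 1 array was left out. The other counts moved as follows, in the order SKMEL5 6 h, WM2664 6 h, A375 6 h, WM2664 24 h, A375 24 h, change of the mean from 6 to 24 h, A375 minus the others at 24 h, SKMEL5 minus WM2664 at 24 h, A375 minus the others at 6 h, and DMSO over time. Without scaling they were 1, 4, 0, 1, 0, 26, 14, 19, 0 and 0. As deposited with a floor of 1 they were 0, 0, 0, 1, 0, 19, 7, 10, 0 and 0, with 5 and 26 for the means at 6 h and 24 h. Without scaling the median of all genes moved to 0.28 in SKMEL5 and 0.39 in WM2664 at 6 h and to 0.18 in WM2664 at 24 h. With 75th percentile scaling the 6 h counts were 6, 4 and 4. A floor of 16 gave 3 (A375 6 h), 5 (A375 24 h) and 3 (A375 minus the others at 6 h). SKMEL5 minus WM2664 at 6 h had 3 calls with a floor of 64 and with the mean of probe sets. Without the DMSO arrays with traces of another line, A375 had 2 calls at 6 h and 2 at 24 h, its 6 h difference from the others 2, the mean at 6 h 13 and DMSO over time 14. The additive fit gave 13 and 0 for the means at 6 h and 24 h.

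Leaving out 1 array gave 2 to 12 calls for A375 6 h, 4 to 10 for A375 24 h, 8 to 12 for SKMEL5 6 h, 9 to 12 for WM2664 6 h, 21 to 31 for WM2664 24 h, 13 to 23 and 19 to 43 for the means at 6 h and 24 h, 23 to 42 for their change, 22 to 43 and 3 to 7 for A375 minus the others at 24 h and 6 h, 37 to 41 and 0 to 1 for SKMEL5 minus WM2664 at 24 h and 6 h, and 24 to 34 for DMSO over time. The differences between DMSO replicates 1 and 2 did not correlate between groups (r from -0.03 to 0.06 over 15 pairs). That covers only a shift common to the DMSO groups. It cannot show a batch within a group or in the A-485 arrays, which are all replicate 1. With the replicate number as a block, the replicate block gave 5 calls for A375 6 h and 1 for SKMEL5 minus WM2664 at 6 h, and the other counts stayed within 1.5 times.

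Of 1225 values for 41 results of 17 named genes under 31 alternatives, 1114 kept direction and call, 107 lost the call and 4 reversed. DTL in the mean at 6 h became 0.16 without scaling and with a floor of 1, and ranged from -0.308 to 0.031 when 1 array was left out, the highest without SKMEL5 A-485 6 h, and MCM5 in the same mean became -0.064 without probe sets of cross-hybridising suffix. The cause was not tested. Intensities near the floor limit the falls of 11 members in SKMEL5 at 24 h, and no A-485 group has a replicate.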
